A study of Homo sapiens with 4 samples.

Results

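The nuclear factor I (NFI) family holds 4 human genes, NFIA, NFIB, NFIC and NFIX, and was followed in cells given the microRNA miR-223. Its members were taken as every array probe whose gene name in the deposited bead signals was one of these 4 symbols, which gave 7 of the 47321 probes on the array. NFIA, NFIB and NFIX each had 1 probe and NFIC had 4. The cells were OE33, an established human line of esophageal adenocarcinoma grown in serum. Control cells received a negative control precursor and miR-223 cells received the pre-miR precursor of hsa-miR-223, each at 10 nM with a lipid transfection reagent. RNA was taken 24 h later and read on Illumina HumanHT-12 v4 bead arrays, 2 for each group, which the design text describes as biological replicates. Every value below is thus from 1 cell line, 1 dose and 1 time after a transient transfection, and cells without any precursor were not analysed here.

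NFI proteins are transcription factors that bind the paired DNA motif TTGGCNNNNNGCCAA as dimers through a closely similar DNA-binding domain, and they activate or repress genes depending on the partner. NFIA is known from blood cells, where it holds back granulocyte formation and where miR-223 lowers it, while NFIA in turn competes with the factor CEBPA at the miR-223 promoter. NFIA and NFIB are known for glial and brain development, NFIB for lung maturation, NFIC for tooth root formation and NFIX for muscle and neural stem cells. A microRNA guides silencing proteins to messenger RNAs that pair with its seed, bases 2 to 8 from its 5′ end, and usually lowers the level of those messages.

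The sequences of miR-223 are shown because they are what was varied between the groups. They are from RefSeq (GRCh38.p14), where the gene lies at chrX:66018870-66018979 on the plus strand. The capitals mark the seed in each mature strand, and in the hairpin they mark the strand miR-223-3p, which is the one known to act on NFIA.
hsa-miR-223-3p: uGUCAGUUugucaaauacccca
hsa-miR-223-5p: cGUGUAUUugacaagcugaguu
hairpin of MIR223: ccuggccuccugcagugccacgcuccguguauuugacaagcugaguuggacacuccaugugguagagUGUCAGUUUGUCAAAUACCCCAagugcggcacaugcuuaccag
A message that pairs fully with the seed of miR-223-3p holds the letters AACUGAC, and one that pairs with the seed of miR-223-5p holds AAUACAC. Sites in the messages of the NFI genes were not analysed here.

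A probe counted as detected on an array at a detection p under 0.05, where that p reports how often a negative control was at least as bright. Between 18036 and 18916 probes were detected on an array, and the median probe signal rested on 22 beads. The precision of all comparisons was limited by the number of arrays. The array's own probe for the MIR223 transcript had bead signals of 108.3 and 111.7 in control and 100.7 and 110.5 in miR-223 cells and was detected on none of the 4, and it does not check the amount of transfected precursor. All 7 epithelial markers examined, such as EPCAM and KRT8, were measured, as were AGR2 and CDX2 of 8 columnar markers. None of the 6 fibroblast markers was measured, and of 7 leukocyte markers CD14, LYZ and SPI1 were, while PTPRC, which defines leukocytes, was not detected on any array. The epithelial marker with the smallest p was CLDN4, a tight junction protein, at a log2 difference of 1.05 ± 0.43 (SE), miR-223 minus control, with overlapping groups and a limma adjusted p of 0.909. For replicates 1 and 2, CLDN4 had log2 intensities of 7.257 and 6.161 in control and 8.285 and 7.231 in miR-223 arrays. It was thus higher with miR-223 between the arrays of either number. KRT18 was at -0.38, KRT8 at -0.26 and CLDN7 at -0.24. Of 5 squamous markers KRT13 was at 0.41 and KRT14 at 0.11, and their summed background-corrected intensity was 1953 to 1974 in control and 2430 to 2767 in miR-223 arrays, while KRT5 and TP63 were detected on no array. The part of these shifts in the NFI differences was not tested.

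NFIA was the lowest of the family in the miR-223 cells relative to control. Its bead signal was 219.7 and 342.8 intensity units in the control arrays and 167.3 and 214.6 in the miR-223 arrays, each with a bead standard error between 5.01 and 14.6 units. The groups did not overlap, with miR-223 the lower, but the margin was small. Control replicate 1 and miR-223 replicate 2 differed by less than the bead standard error of either. Control replicate 2 stood above the other arrays. The lowest signal called detected was between 122.5 and 126.2, so NFIA was not far above it, least of all in miR-223 replicate 1. It was detected on all 4 arrays, and 78.0% of all probes on the array were dimmer by mean normalized intensity.

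**Figure D1:**
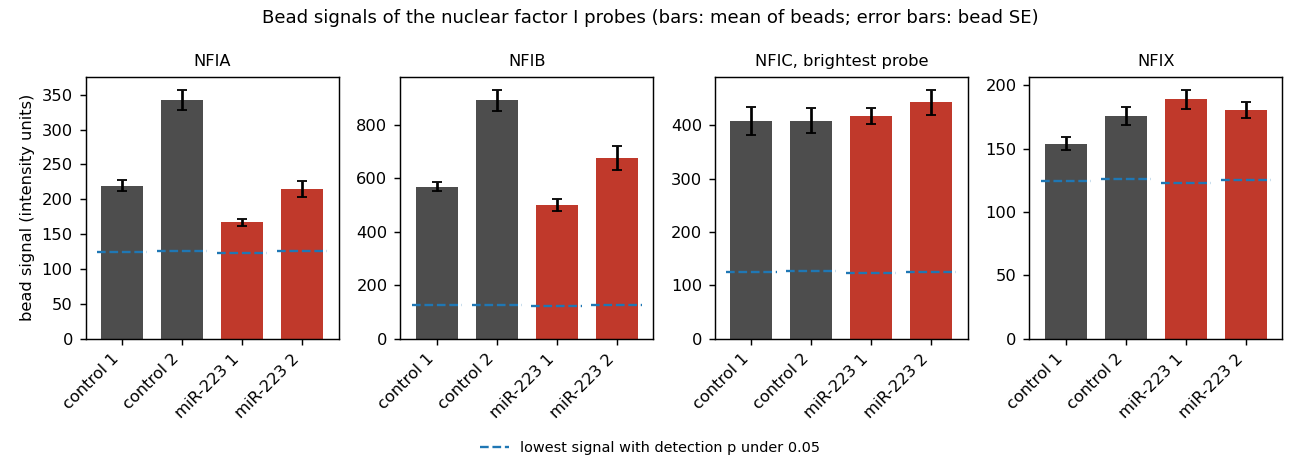
Mean bead signal in intensity units (bars) with the bead standard error, for NFIA, NFIB, the brightest NFIC probe and NFIX on each of the 4 arrays, control in grey and miR-223 in red. The dashed blue line is the lowest signal called detected on that array. NFIA and NFIB are highest in control replicate 2 and lowest in miR-223 replicate 1, while NFIC lies between 408.1 and 443.4 on all arrays.

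After background correction and quantile normalization, NFIA had log2 intensities of 7.13 and 7.83 in control cells and 6.37 and 6.85 in miR-223 cells. The group means were 7.48 ± 0.50 (SD, n = 2) and 6.61 ± 0.34 (SD, n = 2), a log2 difference of -0.87 ± 0.30 (SE) or a 1.83-fold lower level. The difference was larger than the spread within either group, with a 95% interval in limma from -1.56 to -0.19. By its limma p NFIA ranked 343rd of the 18629 tested probes, and its limma adjusted p of 0.909 over all of them did not pass the threshold of 0.05. Only 63 tested probes, or 0.338%, had a lower difference than NFIA. In bulk RNA of this kind, a lower level in every cell and a lower share of cells with the message cannot be told apart.

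The size of the NFIA difference depended on single arrays and on the background correction. Without control replicate 2 it was -0.52, and without control replicate 1 it was -1.23. Between same-numbered arrays it was -0.76 for replicate 1 and -0.99 for replicate 2. The labels leave unstated whether the numbers pair the arrays. Without background correction the NFIA difference was -0.52. NFIA also stood at a log2 fold change of -0.52 in the authors' deposited table, and 0.236% of the 34693 genes in that table were lower.

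NFIB, the closest of the paralogs in its pattern over the arrays, leaned the same way by a smaller amount that was not larger than the spread. Its bead signal was 567.0 and 890.5 units in control and 500.2 and 676.1 units in miR-223 arrays. The groups overlapped, because miR-223 replicate 2 lay above control replicate 1. On the log2 scale the means were 9.27 ± 0.37 (SD, n = 2) and 8.94 ± 0.25 (SD, n = 2), a difference of -0.34 ± 0.26 (SE) with a 95% interval from -0.94 to 0.27 (limma adjusted p = 0.999). A difference as low as the -0.87 of NFIA thus lies inside the interval for NFIB. Between same-numbered arrays the NFIB difference was -0.26 for replicate 1 and -0.42 for replicate 2. Leaving out single arrays moved the NFIB difference to -0.078 without control replicate 2, to -0.16 without miR-223 replicate 1, to -0.51 without miR-223 replicate 2 and to -0.59 without control replicate 1. Among the tested probes, 11.0% had a lower difference than NFIB and 21.6% a larger one in either direction. In the authors' deposited table NFIB stood at -0.29, with 1.74% of genes lower. That table also holds undetected genes and has no detection filter, so the 2 shares are not on the same footing.

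NFIC was read by 4 probes. The tested ones had positive differences, and the only negative one was ILMN_1814402 at -0.14, a probe detected on no array. Its brightest probe had bead signals of 408.1 and 409.1 units in control and 417.2 and 443.4 units in miR-223 arrays. Log2 intensities were 8.45 and 8.17 in control and 8.44 and 8.37 in miR-223 arrays, so the groups overlapped, with means of 8.31 ± 0.19 (SD, n = 2) and 8.41 ± 0.054 (SD, n = 2). The difference was 0.096 ± 0.22 (SE), with a 95% interval from -0.42 to 0.61 (limma adjusted p = 0.999), and it changed to -0.040 without control replicate 2. The difference was also 0.23 without control replicate 1 and 0.058 without miR-223 replicate 1.

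The other NFIC probes lay near background. ILMN_1654942 was detected on both miR-223 arrays, at 127.0 and 129.4 units, and on 0 of 2 control arrays, at 123.0 and 105.9 units. Its measured log2 means were 4.78 in control and 5.23 in miR-223 cells (limma adjusted p = 0.954). The 95% interval of the difference in limma ran from -0.14 to 1.03, so it included no change. The miR-223 mean was 1.11-fold above the lowest level called detected, a ratio that makes no allowance for noise. ILMN_2329263 was detected on 1 array, miR-223 replicate 1 at 131.5 units, and ILMN_1814402 on 0 of 4, with signals from 96.8 to 111.5 units, and neither was tested. Which NFIC transcripts these probes match was not analysed here.

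NFIX leaned the other way. Its bead signal was 154.0 and 176.0 units in control and 189.0 and 180.3 units in miR-223 arrays, and both miR-223 arrays lay above both control arrays by a small margin. The log2 intensities were 6.08 and 6.24 in control and 6.73 and 6.37 in miR-223 arrays, with means of 6.16 ± 0.11 (SD, n = 2) and 6.55 ± 0.25 (SD, n = 2). The difference was 0.39 ± 0.23 (SE), or 1.31-fold, with a 95% interval from -0.15 to 0.93 (limma adjusted p = 0.963). It was 0.21 without miR-223 replicate 1 and 0.19 without background correction, so its size moved with 1 array and with the treatment of background. In the authors' deposited table NFIX was at 0.19 and NFIC, which has 1 value there, at 0.071. That NFIC value averages the intensities of all 4 NFIC probes, most of them near background, so it is another measure than the brightest probe. On the authors' values the brightest NFIC probe alone was at 0.074.

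Of the 5 NFI probes tested, 0 passed limma at an adjusted p under 0.05, as did 0.0% of all tested probes. At an unadjusted limma p under 0.05, 1 of the 5 was lower, NFIA, and 0 were higher, against 5.46% of all tested probes, 2.78% lower and 2.68% higher. NFIA was also the 1 member lower by at least 1.5-fold, as were 2.37% of tested probes. The differences of NFIA and NFIB were negative, 2 of 5, against 49.5% of tested probes. The groups did not overlap for 3 of the 5, against 33.2% of all tested probes. Of these NFIA was lower (16.8% of tested probes) and NFIX and the dim NFIC probe were higher (16.4%). The dim NFIC probe met the detection filter only through the miR-223 arrays, where it was brighter, so its place in this count is no separate support. The call on NFIA changed with the model: with replicate number as a block plus a variance trend and robust fitting, 1.01% of tested probes passed limma, NFIA among them with an adjusted p of 0.0476. With the block alone 0.0% passed, and NFIA had a limma adjusted p of 0.379. Further fits with the block were added after seeing the data. On values without background correction NFIA passed with the block, among 1.99% of tested probes, or 1.91% with the trend added. On the authors' values it passed among 2.16% and 2.13%. NFIB, NFIC and NFIX passed in none of these fits, and the labels leave unstated whether the numbers pair the arrays.

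**Figure D2:**
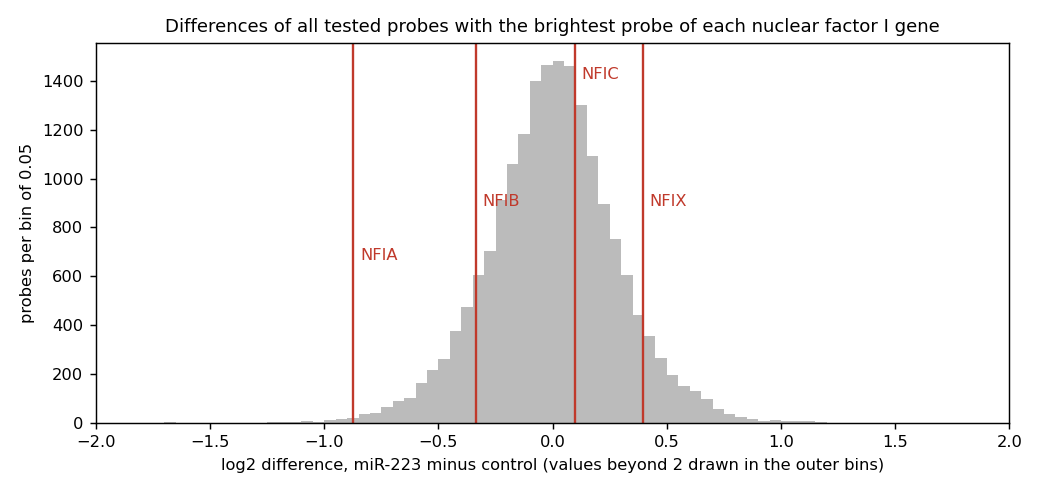
Number of tested probes (vertical axis, bins of 0.05) by log2 difference, miR-223 minus control, with red lines at the brightest probe of each NFI gene. NFIA at -0.87 lies in the far left tail, NFIB at -0.34 left of the centre, NFIC at 0.096 near the centre and NFIX at 0.39 on the right.

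Whether NFIA differed between groups by another amount than its paralogs was examined within each array, where a shift shared by the family cancels. NFIA minus NFIB, in log2 intensity, was -1.88 and -1.70 in control arrays and -2.39 and -2.27 in miR-223 arrays. The SD within groups (n = 2 each) was small here, at 0.13 for control and 0.083 for miR-223 cells. The difference between groups was -0.54, so relative to NFIB the NFIA level was 1.45-fold lower, and the groups did not overlap. Without background correction it was -0.23, or 1.17-fold lower, still with no overlap.

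Relative to the other paralogs the gap was wider. NFIA minus NFIC was -1.31 and -0.34 in control and -2.07 and -1.52 in miR-223 arrays, a difference of -0.97. NFIA minus NFIX was 1.06 and 1.60 in control and -0.36 and 0.48 in miR-223 arrays, a difference of -1.27. Against the mean of NFIB, NFIC and NFIX, the NFIA difference was -0.93. The groups did not overlap in any of these contrasts. The contrasts share the same NFIA values, so they are not separate results. For single probes, the groups did not overlap in 33.2% of those tested. The exact permutation test over the 4 arrays, two-sided, gave p = 0.33 for each of the 4, the smallest p that this test can give with 2 arrays against 2, so it cannot reach 0.05. On values without background correction, NFIA minus the mean of its paralogs was -0.51, NFIA minus NFIC -0.59 and NFIA minus NFIX -0.71. NFIB minus the mean of NFIC and NFIX also differed between groups, by -0.58 with no overlap (exact permutation p = 0.33). A lower level relative to NFIC and NFIX was thus not particular to NFIA. Without background correction this NFIB contrast was -0.42 and its groups overlapped.

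**Figure D3:**
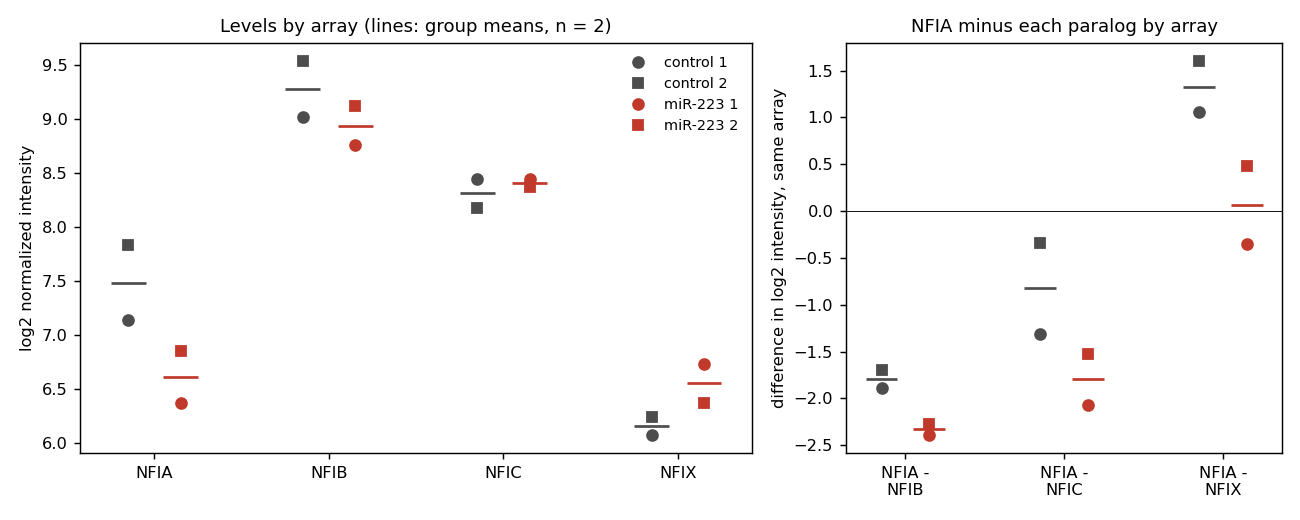
Left, log2 normalized intensity of the brightest probe of each NFI gene by array, with circles for replicate 1, squares for replicate 2 and lines at group means; heights of different genes come from different probes and are not comparable. Right, NFIA minus each paralog on the same array, where both miR-223 points lie below both control points in each contrast.

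NFIA was then set beside other genes reported as miR-223 targets, 29 of 39 of which had a tested probe. The list was drawn up with earlier results of these data known, so its counts and median are not independent of them. By difference NFIA was the 4th lowest, after STMN1, the microtubule destabilizer stathmin, PARP1, a DNA repair enzyme, and LMO2, a LIM-only adaptor of blood cell transcription factors. Of the 29 genes, 25 had a negative difference (86.2%, against 7141 of all 14285 tested genes), and the median was -0.33, or -0.32 without NFIA, against 4.6e-05 for all tested genes. Without background correction the median was -0.24. At an unadjusted p under 0.05, 7 were lower and 0 were higher, where 2.85% of all tested genes were lower, and 0 passed limma after adjustment over all probes. The 4 members with the smallest p were STMN1 at -1.47 ± 0.23 (SE), PARP1 at -1.36 ± 0.22 (SE), the RNA polymerase III subunit gene POLR3G at -0.82 ± 0.22 (SE), and PRDM1, a repressor known from plasma cells, at -0.72 ± 0.22 (SE). PRDM1 stood at -0.36 without background correction.

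**Figure D4:**
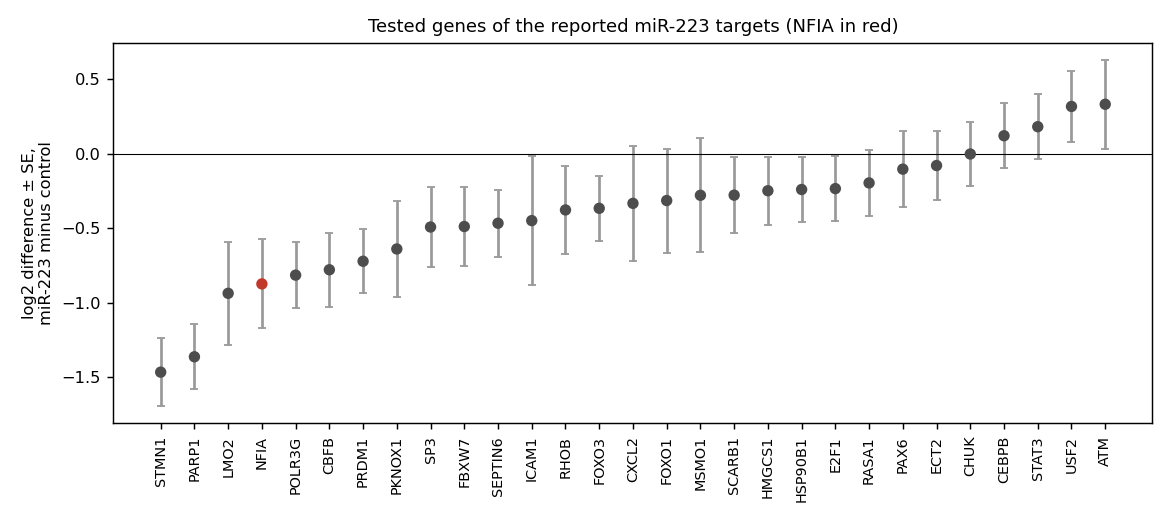
Log2 difference, miR-223 minus control, with its SE from limma (vertical axis) for the 29 tested genes reported as miR-223 targets, ordered by difference. NFIA, in red at -0.87, is the 4th from the left, and 4 genes at the right end lie above 0.

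The genes whose array pattern was most like that of NFIA were found by the root mean square distance over the 4 arrays between log2 values centred on each gene's own mean. The 5 nearest of 14284 tested genes were NIPAL3, a relative of magnesium transporters, EML2, a microtubule-associated protein, SNX24, a sorting nexin, LMO2, and FNIP2, a partner of folliculin. Their distances lay between 0.045 and 0.10 on the log2 scale. NIPAL3, the nearest, had log2 intensities of 7.78 and 8.58 in control and 7.06 and 7.60 in miR-223 arrays. In all 5, as in NFIA, control replicate 2 was the highest array and miR-223 replicate 1 the lowest. This follows from choosing them by small distance to NFIA and is no separate result. Ranked among all 14284 genes, with none passed over, NFIB was 281st at a distance of 0.28, NFIC 9975th at 0.63 and NFIX 12645th at 0.72. With 4 points that share their arrays, likeness of this kind describes these arrays only.

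Partners and upstream regulators of NFI factors showed no shared direction. Of 17 such genes, 12 were tested, 6 with a negative and 6 with a positive difference, and the median was -0.0046. None of the 12 had an unadjusted p under 0.05 or passed limma after adjustment. CEBPA, the granulocyte factor that competes with NFIA at the miR-223 promoter, had the smallest p of the list, with log2 intensities of 7.29 and 7.42 in control and 7.79 and 7.86 in miR-223 arrays. Its groups did not overlap, and its difference was 0.47 ± 0.22 (SE), or 1.38-fold, with a limma adjusted p of 0.919. SKIL, a relative of the NFI-binding repressor SKI, was at 0.33 ± 0.26 (SE), FOXA1, a pioneer factor that works with NFI in other epithelia, at 0.23 ± 0.23 (SE), and the histone methyltransferase gene EZH2 at -0.22 ± 0.22 (SE). ESR1, POU3F2, ATRX and ZEB1 were among those not detected on enough arrays to be tested.

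Of 25 genes reported elsewhere as being under NFI control, 9 were detected on enough arrays to be tested, and the glial genes GFAP, FABP7 and SLC1A3, with mean bead signals between 101.2 and 105.0 units, were detected on 0 of 4 arrays. Of the 9, 5 had a negative and 4 a positive difference, with a median of -0.098, and 0 had an unadjusted limma p under 0.05. CCN2, a secreted matrix factor, was at -0.29 ± 0.21 (SE), with both miR-223 arrays below both control arrays (9.05 and 8.98 against 9.33 and 9.28). The plasminogen activator gene PLAT was at 0.34 ± 0.26 (SE) and the cell cycle inhibitor gene CDKN1A, which NFI factors are reported to repress, at -0.26 ± 0.27 (SE).

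The full motif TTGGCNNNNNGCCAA, which reads the same on both strands, was searched in RefSeq promoter windows of 300 bases (GRCh38.p14). It was found for 10 of 27305 genes, or 0.0366%, and in no window of the 4 NFI genes themselves. An arm of it alone, TTGGC or GCCAA, was in 45.6% of all windows, in 1 of 3 windows of NFIA, 6 of 10 of NFIB, 0 of 1 of NFIC and 2 of 5 of NFIX. The matches of the 3 genes that were also tested are shown to let the motif be seen in place, with its arms in capitals.
ACAT1, chr11:108121451-108121481, plus strand: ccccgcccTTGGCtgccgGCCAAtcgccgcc
ATP2B4, chr1:203626726-203626756, plus strand: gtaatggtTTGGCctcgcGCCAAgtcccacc
MYO10, chr5:16936374-16936404, minus strand: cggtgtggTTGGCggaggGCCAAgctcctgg
The log2 differences of these genes were 0.021 for ACAT1, a mitochondrial thiolase, -0.096 for ATP2B4, a calcium pump, and 0.10 for MYO10, a myosin of filopodia. All 3 had overlapping groups, and the matches are letters in a window and not shown to be bound.

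**Figure D5:**
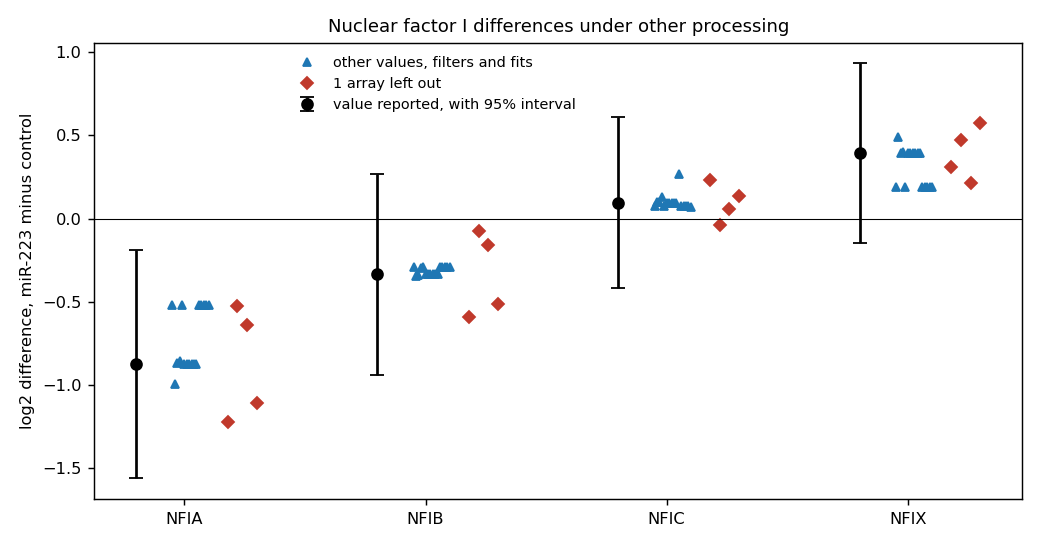
Log2 difference, miR-223 minus control, for each NFI gene: the reported value with its 95% interval in limma (black), the values under other normalizations, filters and fits (blue) and the values with 1 array left out (red). NFIA stays below 0 throughout, from -1.23 to -0.52, NFIB also stays below 0 and NFIX above it, and NFIC lies on both sides.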

How the data were processed

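The authors deposited, per the file headers, a linear intensity per probe averaged over beads, its bead standard error, the bead count and a detection p-value. They also deposited quantile normalized intensity values, and a table per gene with log2 values, a log2 fold change and a signed linear fold, a score not tested here. The submitters' processing notes name GenomeStudio, BeadStudio and Partek without roles. Background was removed from these intensities by normexp (offset 16, negative controls inferred from detection p-values), quantile normalized and taken to log2 (limma 3.58.1, R 4.3.3). Testing took in 18629 of 47321 probes, those detected at p under 0.05 on 2 or more arrays, and used lmFit and eBayes, two-sided, group as the only term, adjusted by Benjamini-Hochberg over all tested probes with a threshold of 0.05. The test was checked on simulated data, where it missed changes a little larger than the NFIA difference and recovered most of those much larger. The simulated arrays were independent, without the correlation of same-numbered arrays seen in these data. Why NFIA was not called was not tested. With 6.21 prior degrees of freedom, its SE leans on a spread shared by all probes. A gene is represented by its tested probe with the highest mean intensity. Names were updated through RefSeq (GRCh38.p14): 30528 probes matched a symbol or gene ID, 4625 a synonym, and 12168 kept the file's name. The files name no genome build, so no probe is placed on the genome, and the coordinates printed belong to the RefSeq sequences.

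All NFI probes are named, with the 4 members of smallest p in each gene list and in the epithelial markers. Also named are any member that an NFI statement turns on, and the 5 genes nearest to NFIA that have no locus or clone name. The members and lists were chosen with earlier results of these data known. Alternatives covered background correction, normalization, the authors' values, the filter, the variance model, a replicate block, averaging of a gene's probes and leaving out each array.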

Additional observations from a re-analysis of the deposited data

How the results depend on the processing

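NFIA kept a negative difference under all 18 alternatives for its probe, while NFIB kept a negative one and NFIX a positive one. With 1 array left out, differences ran from -1.23 to -0.52 for NFIA, -0.59 to -0.078 for NFIB, -0.040 to 0.23 for the bright NFIC probe, 0.17 to 0.72 for the dim one and 0.21 to 0.57 for NFIX. The bright NFIC probe turned to -0.040 without control replicate 2, and the cause was not tested. Whether the replicate numbers pair the arrays is unstated in the labels, and deviations of same-numbered arrays correlated at 0.352 across probes. Same-numbered control and miR-223 arrays correlated at 0.9866 and 0.9875. The arrays within a group correlated less, at 0.9833 for control and 0.9841 for miR-223. The replicate block alone left 0 probes called, with NFIA at a limma adjusted p of 0.379. The replicate block with a variance trend and robust fitting in limma called 188 probes (117 lower, 71 higher), or 1.01%, NFIA among them (-0.87, adjusted p = 0.0476). Combined after seeing the data with values without background correction, the replicate block called 371 alone and 356 with the trend, and NFIA passed at -0.52 (limma adjusted p = 0.0239 and 0.0113). On the authors' values it called 402 and 397, and NFIA passed at -0.52 (limma adjusted p = 0.0206 and 0.00909). NFIB, NFIC and NFIX passed in none of these fits. Without the block, limma called 0 probes in every planned setting on all 4 arrays, and 0 to 1 with 1 array left out (1 without control replicate 2). NFIA minus its paralogs was -0.51 both without background correction and on the authors' values, and -1.21 to -0.64 with 1 array left out. The median of the reported targets was -0.24 without background correction and on the authors' values, and -0.34 to -0.26 with 1 array left out. The NFI partners had medians of -0.098 to 0.11 with 1 array left out, and genes under NFI control -0.30 to 0.12. Low signal limits NFIA and NFIX, and signal near background limits 3 of the 4 NFIC probes.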

Other observations

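The rows of the authors' deposited table per gene are in order of how closely the differences of same-numbered arrays agree. The size of the difference between the replicate 1 and replicate 2 fold changes, over the size of their sum, did not fall by more than 0.0005 from any of the 34693 rows to the next. By construction this is the order of a paired test statistic on the 2 numbered pairs. In the authors' deposited table NFIA is in row 5154, with log2 differences of -0.41 for replicate 1 and -0.63 for replicate 2. NFIB is in row 6215 of the authors' deposited table, at -0.21 and -0.36, NFIC in row 7039, at 0.050 and 0.092, and NFIX in row 14229, at 0.31 and 0.062. The NFIC values there average its 4 probes. On the authors' values the brightest NFIC probe alone was at -0.0016 and 0.15.

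On the bead signals themselves, the log2 ratio of miR-223 to control for NFIA was -0.39 ± 0.066 (bead SE) over the arrays numbered 1 and -0.68 ± 0.096 (bead SE) over those numbered 2. NFIB was at -0.18 ± 0.077 and -0.40 ± 0.12 (bead SE). The bead errors cover the spread of beads within an array and not the spread between cultures.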
